A study of Mus musculus with 24 samples.

Results

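The natriuretic peptide system was followed through 7 genes: the peptide genes Nppa and Nppb, the receptor genes Npr1, Npr2 and Npr3, and Corin and Furin, which encode processing enzymes. The members were the probes whose gene name in the deposited scanner files is one of these symbols, and each gene had 1 probe, so 7 of the 55681 probes and 7 of the 34844 gene names on the array were used. Gene expression was measured on 24 Agilent 1-colour arrays of RNA from isolated cardiomyocytes of male mice of 6 weeks on a 129SvEv/C57BL/6 background. The 8 groups, each of 3 arrays, were Top2b-/- mice (with a cardiac specific deletion of Top2b, which encodes topoisomerase II beta) given doxorubicin, wild-type (WT) mice given doxorubicin, Top2b-/- mice given PBS and WT mice given PBS, each taken 16 h or 72 h after the injection. Doxorubicin, an anthracycline drug that traps topoisomerase II on DNA, was given at 25 mg/kg by the intraperitoneal route, as was PBS, and live cells were isolated on a Langendorff apparatus. The labels name neither the promoter that drives the deletion nor the animal behind each array, so p-values measure the spread between these samples. The arrays of 16 h and 72 h lay on different slides, and no test was made between the times.

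Nppa encodes atrial natriuretic peptide and Nppb encodes B-type natriuretic peptide, hormones that heart muscle cells release when they are stretched or stressed. Both bind the receptor guanylyl cyclase encoded by Npr1, which makes cyclic GMP. Npr2 encodes the related receptor for C-type natriuretic peptide, and Npr3 encodes a receptor that removes the peptides from circulation. Corin, a serine protease of the cell surface, cleaves the precursor of atrial natriuretic peptide, and Furin, a proprotein convertase, cleaves many precursors, among them that of B-type natriuretic peptide. In the adult heart Nppa is known mainly from the atria, and both peptide genes are known to rise in ventricular muscle under load.

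A level here is the log2 of a probe's processed signal over the 75th percentile of its own array, so that 0 is the 75th percentile. Levels of different probes cannot be set against each other, because probes differ in their response. Differences were tested with limma over all 18750 genes measured at 16 h and all 19669 at 72 h, and a gene was called at a Benjamini-Hochberg adjusted p under 0.05. Npr1 was well above background on 2 of 24 arrays and entered no test, which left 6 tested members.

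Some arrays stood apart from their labels. The genotype characteristic of 4 arrays at 16 h differed from the title. The Top2b probe followed the titles: at 16 h it read 2.54 to 3.34 on the 6 Top2b-/- arrays and 4.03 to 4.39 on the 6 WT arrays, and at 72 h it read 2.13 to 3.08 on Top2b-/- arrays and 3.25 to 3.65 on WT arrays. Y-linked transcripts were not well above background on 17 of the 24 arrays, although all were labelled male. The covariate for Y-linked transcripts used below was set from the gene Ddx3y alone. A probe for Esr1, the estrogen receptor gene, read 5.04 to 7.10 on all Top2b-/- arrays, and at 72 h it also read 6.62 on 1 WT doxorubicin array and 8.41 and 8.58 on 2 WT PBS arrays. It read 0.60 and 1.05 on 2 WT doxorubicin arrays of 16 h. For the members and list genes named below with a genotype difference called at 72 h, values without the 3 WT arrays of 72 h with this signal are given as well. All 8 ventricular markers were well above background on every array, and so were 5 to 7 of the 7 atrial markers on each array, with Bmp10 so on 1 array.

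The peptide genes lie side by side on mouse chromosome 4. In the mm9 build the Nppb probe lay at chr4:147360489-147360548 and the Nppa probe at chr4:147376024-147376083, both on the plus strand and 15475 bases apart. The Nppb probe is shown because it carries the largest difference among the members, with no base marked: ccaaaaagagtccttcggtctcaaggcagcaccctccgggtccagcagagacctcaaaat. The remaining probes lay at chr3:90259171-90259664 on the minus strand for Npr1, chr4:43664035-43664094 on the plus strand for Npr2 and chr15:11769937-11769996 on the minus strand for Npr3. Those for the enzymes lay on the minus strand, at chr5:72692288-72692347 for Corin and chr7:87534082-87534141 for Furin. Exon positions in this build were not used here.

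The promoters of the peptide genes are shown because these neighbours differed in the call for doxorubicin in WT cells at 16 h, where Nppb was called lower and Nppa was not called. Each is the 250 bases before the RefSeq start in GRCm38.p6 on the plus strand, chr4:148000472-148000721 for Nppa and chr4:147985650-147985899 for Nppb. Capitals mark matches, on either strand, to GATAA (bound by GATA factors), CATTCC (the M-CAT element, bound by TEAD factors), TNAAGTG (bound by Nkx2-5) and TATAAA (the TATA box).
Nppa: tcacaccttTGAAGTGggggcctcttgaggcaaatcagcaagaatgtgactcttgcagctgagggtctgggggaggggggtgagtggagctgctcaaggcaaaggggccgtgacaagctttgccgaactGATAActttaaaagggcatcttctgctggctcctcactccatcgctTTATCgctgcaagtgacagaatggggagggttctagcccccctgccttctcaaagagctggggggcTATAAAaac
Nppb: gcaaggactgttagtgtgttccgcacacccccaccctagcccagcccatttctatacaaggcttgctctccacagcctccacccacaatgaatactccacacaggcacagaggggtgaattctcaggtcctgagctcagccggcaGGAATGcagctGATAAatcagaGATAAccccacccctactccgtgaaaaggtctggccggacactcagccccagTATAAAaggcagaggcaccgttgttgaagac
Both windows held 2 GATAA matches, at -121 and -75 in Nppa and at -94 and -83 in Nppb, counted to the start. CATTCC matched only in the Nppb window, at -105, and TNAAGTG only in the Nppa window, at -241. TATAAA matched at -9 in Nppa and at -31 in Nppb, so the starts used lie at different distances from this motif. Of 32851 RefSeq promoter windows of this length, 22.6% held GATAA, 12.6% CATTCC, 10.1% TNAAGTG and 12.4% TATAAA. No matches of these motifs overlapped each other, and a match is a description of letters and not a site.

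Nppa was higher in Top2b-/- cells at both times and under both treatments. At 16 h after PBS, Nppa read 10.67, 10.81 and 10.61 on the Top2b-/- arrays, against 7.49, 9.13 and 8.14 on the WT arrays. The Top2b-/- arrays lay close together and all above the WT arrays, which spread more widely. The difference was 2.44 ± 0.37 (SE) on the log2 scale, a fold of 5.44, with a limma adjusted p of 0.00297. Nppa was the 1 of 6 tested members called in this comparison, in which 12.5% of all genes were called and 6.72% were called higher.

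At 16 h after doxorubicin, Nppa read 10.99, 10.59 and 10.16 on the Top2b-/- arrays, against 8.33, 7.55 and 7.67 on the WT arrays. The groups again did not overlap. The difference was 2.73 ± 0.37 on the log2 scale, a fold of 6.64 (limma adjusted p = 0.000614). In this comparison 3 of 6 tested members were called, all higher in Top2b-/- cells, beside 31.3% of all genes called and 16.9% called higher. All WT doxorubicin arrays lay on slide 1 and all Top2b-/- doxorubicin arrays on slide 2. With slide as a block Nppa differed by 2.86 with a limma adjusted p of 0.0751, and 0 members were called. Within slide 1, which held WT and Top2b-/- arrays of PBS, the PBS difference was 2.49 (limma adjusted p = 0.0288).

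At 72 h after PBS, Nppa read 9.89, 9.63 and 10.40 on the Top2b-/- arrays, against 5.95, 5.94 and 6.88 on the WT arrays. Every Top2b-/- array was above every WT array by more than the spread within either group. The difference was 3.72 ± 0.59 on the log2 scale, a fold of 13.2 (limma adjusted p = 0.00862), and Nppa was the 1 of 6 tested members called, beside 2.13% of all genes called and 1.05% called higher. Within slide 1 the difference was 3.82 (limma adjusted p = 0.0118), and the single pair of arrays on slide 2 differed by 3.52.

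At 72 h after doxorubicin, Nppa read 8.69, 9.81 and 10.55 on the Top2b-/- arrays, against 5.76, 7.37 and 7.98 on the WT arrays. The spread within groups was wider than at 72 h after PBS, and the groups still did not overlap. The difference was 2.65 ± 0.59 on the log2 scale, a fold of 6.27 (limma adjusted p = 0.0243), and 2 of 6 tested members were called here, beside 7.90% of all genes called and 4.25% called higher. The call was lost without Top2b-/- doxorubicin replicate 3 or 4 or WT doxorubicin replicate 3, with limma adjusted p of 0.0805, 0.0746 and 0.0703 and differences of 2.58, 2.21 and 2.82.

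Of the WT arrays at 72 h, the 2 PBS arrays with the Esr1 probe signal had Nppa levels of 5.95 and 5.94, and the doxorubicin array with it had 5.76. These were the 3 lowest Nppa levels among the 6 WT arrays of that time. With the Esr1 probe signal as a covariate, Nppa differed between Top2b-/- and WT cells by 4.19 after PBS (limma adjusted p = 0.00139) and by 3.60 after doxorubicin (limma adjusted p = 0.00715). Without those 3 WT arrays the differences were 3.09 after PBS (limma adjusted p = 0.129) and 2.01 after doxorubicin (limma adjusted p = 0.0627). Those fits left 1 WT PBS array and 2 WT doxorubicin arrays, and the lone array was taken to vary like the other groups. The part of the Esr1 probe signal in these results was not tested further.

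Doxorubicin gave no call for Nppa in either genotype. In Top2b-/- cells, doxorubicin minus PBS was -0.12 ± 0.37 at 16 h and -0.29 ± 0.59 at 72 h, with limma adjusted p of 0.9997 at 16 h and 0.9998 at 72 h. In WT cells it was -0.40 ± 0.37 at 16 h (limma adjusted p = 0.456) and 0.78 ± 0.59 at 72 h (limma adjusted p = 0.459). The arrays of the doxorubicin and PBS groups overlapped in all 4 of these comparisons. The 95% intervals reached from -0.95 to 0.72 in Top2b-/- cells and from -1.24 to 0.43 in WT cells at 16 h, so a change of the size seen between genotypes lay outside them, and at 72 h from -1.60 to 1.02 in Top2b-/- cells and from -0.53 to 2.08 in WT cells.

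**Figure D1:**
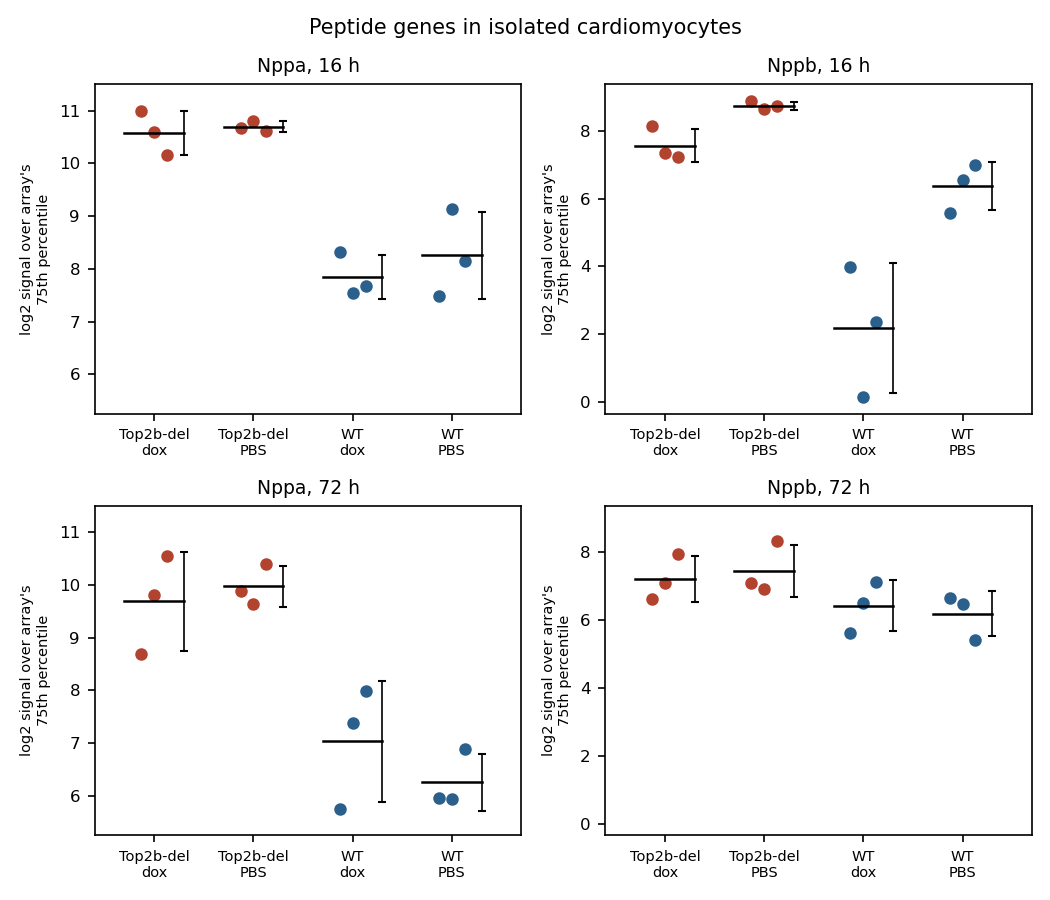
Log2 levels of Nppa (left) and Nppb (right) at 16 h (top) and 72 h (bottom), relative to each array's 75th percentile, with 1 point per array (red Top2b-/-, blue WT), a bar at the group mean and an error bar of 1 SD (n = 3). Every Top2b-/- array lies above every WT array for Nppa at both times, and the WT doxorubicin arrays of 16 h are the lowest for Nppb, at 0.16 to 3.99.

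Nppb fell in WT cells 16 h after doxorubicin and was lower there than in any other group of that time. It read 3.99, 0.16 and 2.37 on the WT doxorubicin arrays, against 5.59, 6.54 and 6.98 on the WT PBS arrays. The groups did not overlap, and the doxorubicin arrays spread widely. The difference was -4.19 ± 0.76 on the log2 scale, a level 18.3-fold lower after doxorubicin (limma adjusted p = 0.00288). Nppb was the 1 of 6 tested members called in this comparison, in which 27.9% of all genes were called and 14.3% were called lower. Leaving out any 1 array kept the call, with differences from -5.10 to -3.19 and limma adjusted p of at most 0.0143, and all 6 arrays lay on slide 1.

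In Top2b-/- cells at 16 h, Nppb read 8.13, 7.35 and 7.22 after doxorubicin, against 8.87, 8.63 and 8.73 after PBS. Every doxorubicin array was below every PBS array, but the difference of -1.18 ± 0.76 was not called (limma adjusted p = 0.9997). No gene of the 18750 was called in this comparison (0%), and 797 had an unadjusted limma p under 0.05. The difference between the doxorubicin responses, Top2b-/- minus WT, was 3.02 ± 1.07 for Nppb with a limma adjusted p of 0.0944, in a comparison with 0 of 6 tested members and 11.5% of all genes called (6.25% higher, 5.26% lower). Without WT doxorubicin replicate 1 it was 3.92 with a limma adjusted p of 0.0125, and over the removal of each array in turn it ran from 2.01 to 3.92.

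Under doxorubicin at 16 h, Nppb in Top2b-/- cells exceeded that in WT cells by 5.39 ± 0.76, a fold of 42.0 (limma adjusted p = 0.000709). The lowest Top2b-/- array, at 7.22, was above the highest WT array, at 3.99. With slide as a block the difference was 5.41 with a limma adjusted p of 0.0897. After PBS the arrays of the genotypes also did not overlap, and the difference of 2.38 ± 0.76, a fold of 5.19, missed the threshold (limma adjusted p = 0.0676). That call was gained with normexp background correction (2.43, limma adjusted p = 0.0312), with Y-linked transcripts as a covariate (4.16, limma adjusted p = 0.0160) and without WT doxorubicin replicate 1 or 2 (limma adjusted p of 0.0146 and 0.0113). The shift from 2.38 to 4.16 means that the Y-linked covariate was spread unevenly over the groups of 16 h.

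At 72 h, Nppb read 6.61, 7.11 and 7.95 in Top2b-/- cells and 5.63, 6.51 and 7.12 in WT cells after doxorubicin. After PBS it read 7.09, 6.93 and 8.33 in Top2b-/- cells and 6.66, 6.48 and 5.42 in WT cells. The groups overlapped except for the genotypes after PBS. The doxorubicin difference was -0.23 ± 0.52 in Top2b-/- cells and 0.23 ± 0.52 in WT cells (limma adjusted p of 0.9998 and 0.832). In WT cells 0 of 6 tested members were called at this time, beside 2.54% of all genes (0.93% higher, 1.61% lower). In Top2b-/- cells 0 of the 19669 genes were called (0%), and 426 had an unadjusted limma p under 0.05. Between genotypes Nppb differed by 0.80 ± 0.52 under doxorubicin and by 1.26 ± 0.52 after PBS, Top2b-/- minus WT, with limma adjusted p of 0.376 and 0.332. Without the 3 WT arrays that had the Esr1 probe signal these values were 0.41 and 2.03 (limma adjusted p of 0.676 and 0.377).

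No member was called for a difference in doxorubicin response between the genotypes at 72 h. In that comparison 0 of 19669 genes were called (0%), and 1349 had an unadjusted limma p under 0.05. With no gene called, the missing calls cannot show that the responses were alike. The difference of responses, Top2b-/- minus WT, was -1.07 ± 0.83 for Nppa and -0.46 ± 0.74 for Nppb.

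Among the receptors, Npr1 gave no usable level. Its probe was well above background on Top2b-/- doxorubicin replicate 2 of 16 h, at -2.90, and on Top2b-/- PBS replicate 2 of 72 h, at -2.73. The other 22 arrays read -6.16 to -4.51, where the values are bounds of detection. These single readings are not repeated within their groups.

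Npr2 was the steadiest member. At 16 h it read 3.05, 3.21 and 3.24 on the Top2b-/- doxorubicin arrays, against 2.86, 2.62 and 2.86 on the WT doxorubicin arrays. The groups did not overlap, and the difference was 0.39 ± 0.11, a fold of 1.31 (limma adjusted p = 0.0192). The PBS arrays read 3.13, 3.18 and 3.08 in Top2b-/- cells, against 2.999, 3.05 and 3.02 in WT cells. The call under doxorubicin was kept in 16 of 21 repeats, with the genotype characteristic and the atrial covariate not among them. It was lost, among others, without WT doxorubicin replicate 2 or Top2b-/- doxorubicin replicate 2 or 3, with limma adjusted p of 0.0514 to 0.0703. With slide as a block it was also lost (0.47, limma adjusted p = 0.283). In WT cells doxorubicin minus PBS was -0.24 ± 0.11 (limma adjusted p = 0.114), and in Top2b-/- cells it was 0.04 ± 0.11. At 72 h all 12 arrays read 2.87 to 3.32, and none of the differences exceeded 0.05 in size.

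Npr3, the clearance receptor gene, was lower in Top2b-/- cells at 72 h under doxorubicin, where Nppa was higher. Under doxorubicin it read -3.76, -3.42 and -2.99 on the Top2b-/- arrays, against -2.06, -0.68 and -0.70 on the WT arrays. The groups did not overlap. The difference was -2.24 ± 0.58, a level 4.73-fold lower in Top2b-/- cells (limma adjusted p = 0.0414). After PBS it read -3.06, -3.52 and -2.67 on the Top2b-/- arrays, against -2.93, -3.70 and -1.25 on the WT arrays, of which the lowest was not well above background, and the groups overlapped. Within the WT genotype doxorubicin minus PBS was 1.48 ± 0.58 (limma adjusted p = 0.155), and it was called with slide as a block (limma adjusted p = 0.0473) and without WT PBS replicate 4 (2.17, limma adjusted p = 0.0295).

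The Npr3 call between genotypes did not hold in many repeats. It was lost without any 1 of 9 arrays, with limma adjusted p of 0.0522 to 0.148, and with quantile normalization (-2.31), no filter on dim probes (-2.24), the deposited value table (-2.14) or the atrial covariate (-1.69), and the difference stayed below 0 in each of these. With the Esr1 probe signal as a covariate the difference was -1.10 (limma adjusted p = 0.149), and without the 3 WT arrays that had that signal it was -2.70 (limma adjusted p = 0.00537). Within slide 1 it was -2.22 (limma adjusted p = 0.0386), and the pair on slide 2 differed by -2.28. Markers of endothelial cells, in which Npr3 is also expressed, moved with it: all 10 were well above background on every array, and their summed linear level was 45.7 to 84.4 on the Top2b-/- doxorubicin arrays, against 123 to 188.5 on the WT doxorubicin arrays. Their median difference was -1.52 with 0 of 10 called, beside a median of 0.08 over all genes, and their part in the result was not tested. In these bulk samples fewer cells of a type and less RNA per cell cannot be told apart.

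At 16 h Npr3 gave no call. It read -3.05, -3.03 and -3.71 on the Top2b-/- doxorubicin arrays, against -4.50, -2.43 and -1.80 on the WT doxorubicin arrays, of which the lowest was not well above background. After PBS it read -3.07, -2.53 and -3.26 in Top2b-/- cells, against -1.91, -1.65 and -2.19 in WT cells, without overlap. The PBS difference of -1.03 ± 0.56 had a limma adjusted p of 0.259, and it was called with normexp background correction (-0.54, limma adjusted p = 0.0379) and without WT doxorubicin replicate 1 (limma adjusted p = 0.0253).

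**Figure D2:**
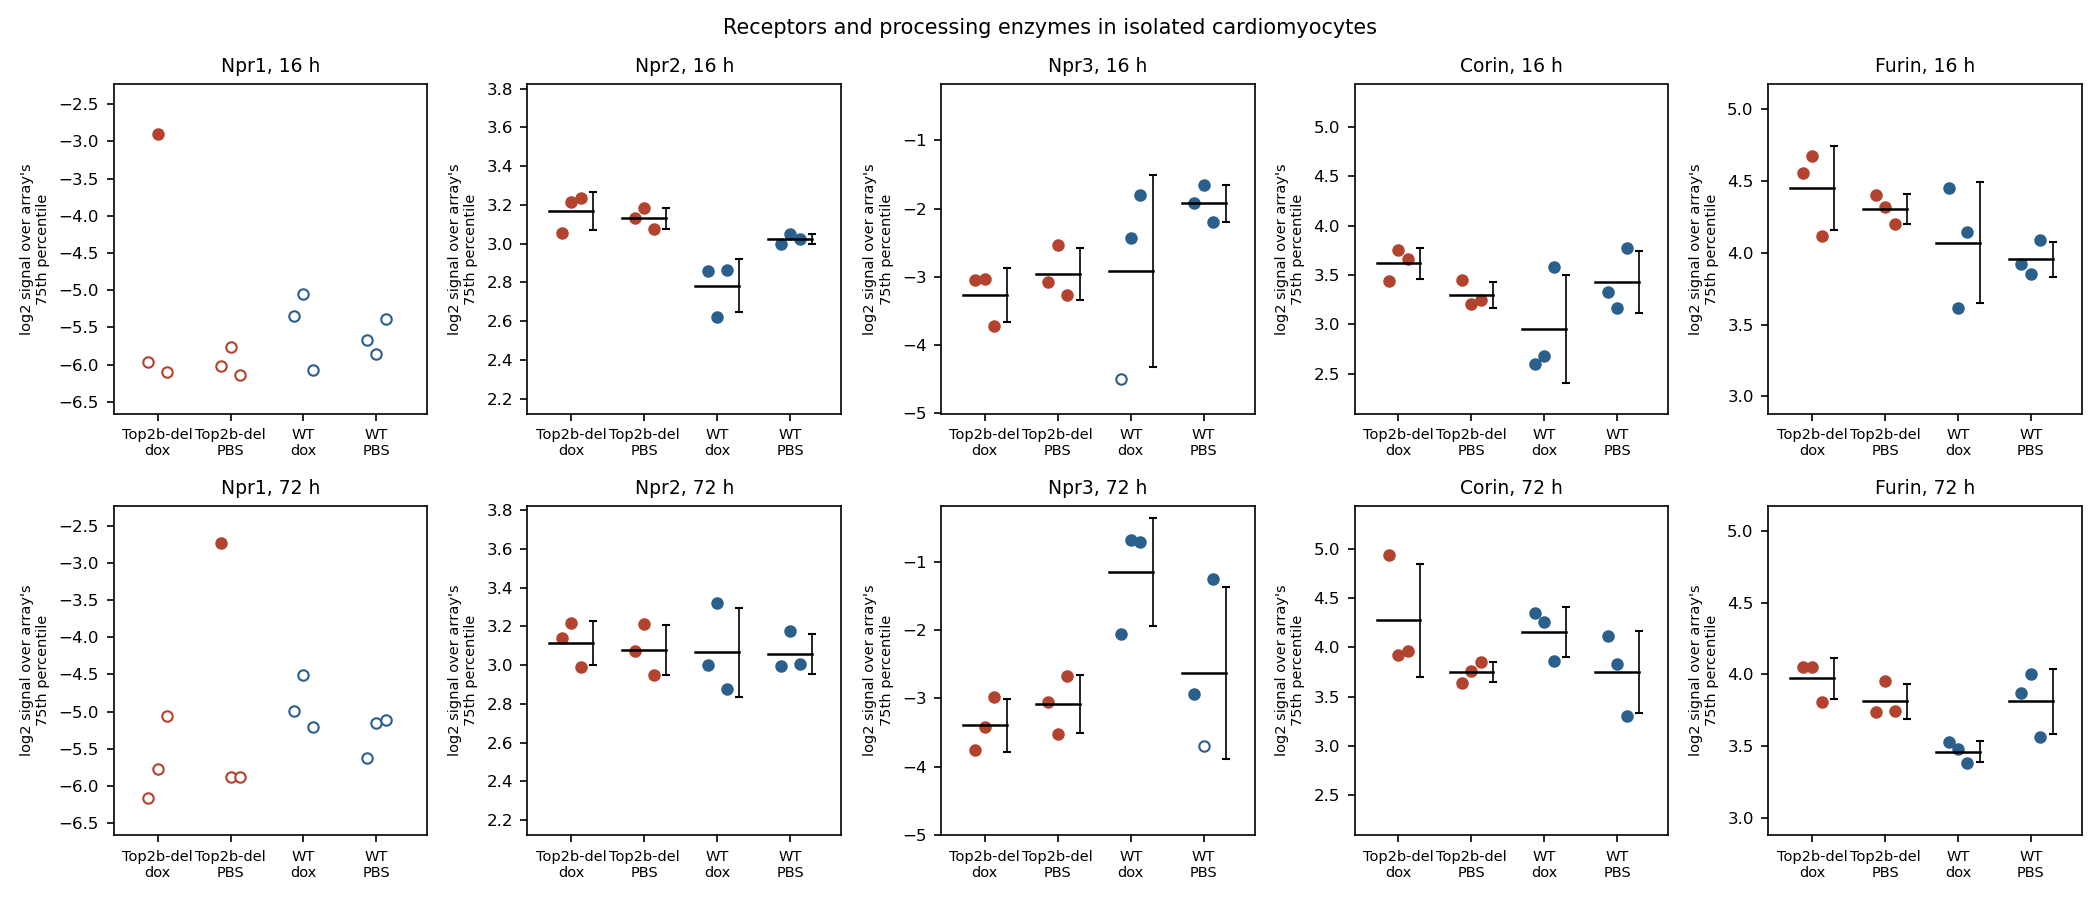
Log2 levels of the receptor genes Npr1, Npr2 and Npr3 and of the enzyme genes Corin and Furin at 16 h (top) and 72 h (bottom), relative to each array's 75th percentile, with 1 point per array, open where the probe was not well above background, and, except for Npr1, a bar at the mean and an error bar of 1 SD (n = 3). Npr1 is open on 22 arrays, and Npr3 at 72 h is highest on the WT doxorubicin arrays.

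Corin and Furin gave no call in any of the 10 comparisons. Corin at 16 h read 3.44, 3.75 and 3.66 on the Top2b-/- doxorubicin arrays, against 2.60, 2.68 and 3.58 on the WT doxorubicin arrays. WT doxorubicin replicate 3 alone overlapped the Top2b-/- arrays, and the difference of 0.67 ± 0.25 had a limma adjusted p of 0.0669. It was called with normexp background correction (0.68, limma adjusted p = 0.0497), with the deposited value table (0.83, limma adjusted p = 0.0463) and with the Y-linked covariate (limma adjusted p = 0.0498). Without that replicate the difference was 0.98 (limma adjusted p = 0.00231), and WT doxorubicin minus PBS became -0.79 (limma adjusted p = 0.00792), against -0.47 ± 0.25 (limma adjusted p = 0.187) with it. After PBS Corin read 3.20 to 3.45 in Top2b-/- cells and 3.17 to 3.78 in WT cells. At 72 h it read 3.64 to 4.93 on Top2b-/- arrays and 3.30 to 4.34 on WT arrays, with its highest level on Top2b-/- doxorubicin replicate 2.

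Furin at 72 h read 4.05, 4.05 and 3.81 on the Top2b-/- doxorubicin arrays, against 3.53, 3.48 and 3.38 on the WT doxorubicin arrays. The groups did not overlap, and the difference of 0.51 ± 0.15, a fold of 1.42, had a limma adjusted p of 0.0640. The same difference was called with slide as a block (limma adjusted p = 0.0189), with normexp background correction (0.53, limma adjusted p = 0.0237) and without WT PBS replicate 4 (limma adjusted p = 0.0440). In WT cells doxorubicin minus PBS was -0.35 ± 0.15 at 72 h (limma adjusted p = 0.185). At 16 h Furin read 4.12 to 4.67 on Top2b-/- arrays and 3.62 to 4.45 on WT arrays.

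**Figure D3:**
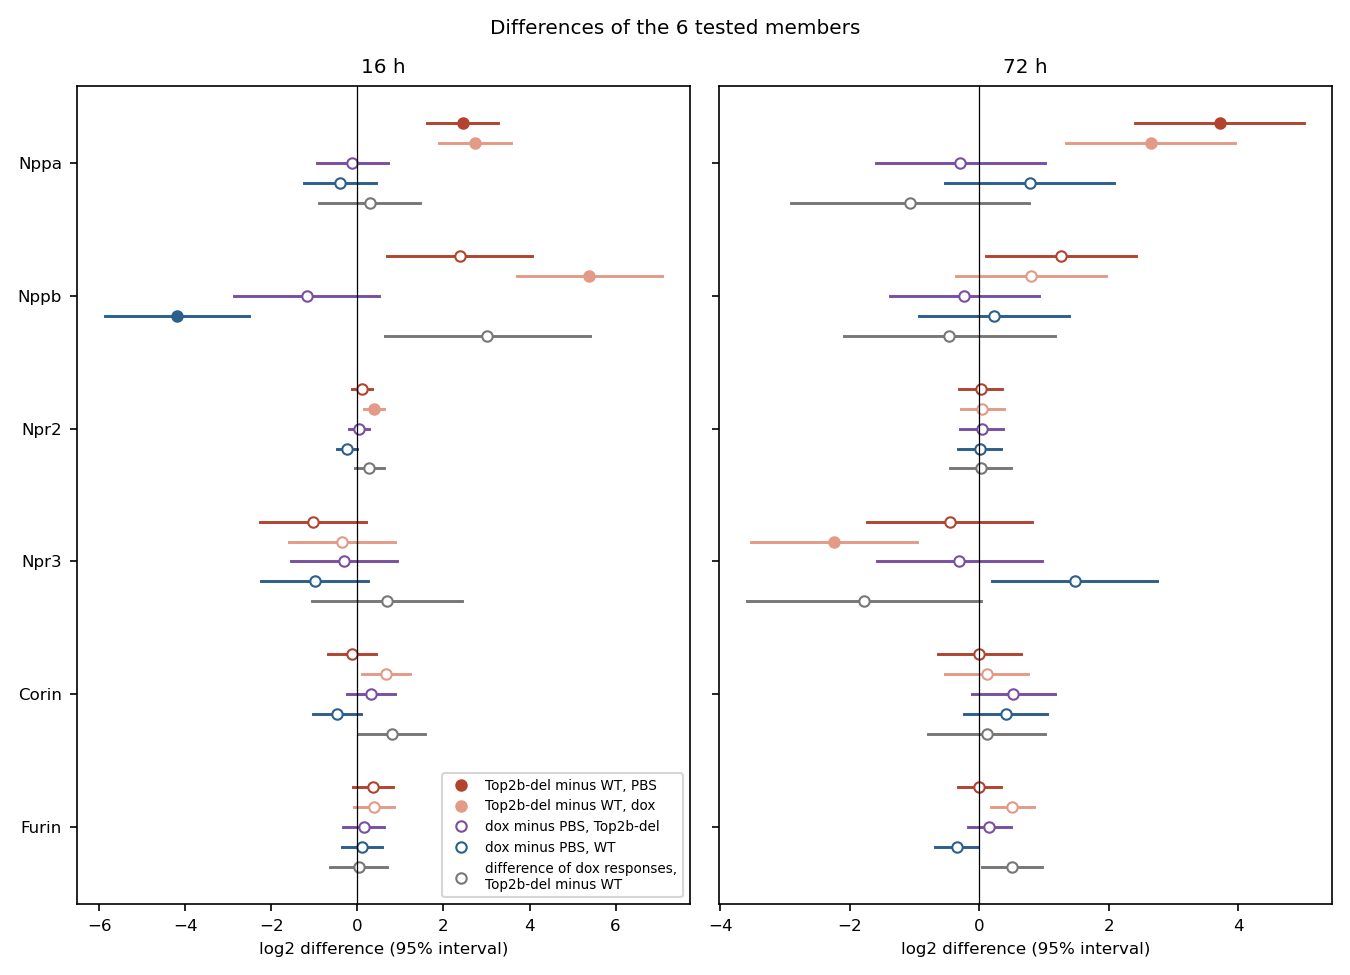
Log2 differences of the 6 tested members (rows) at 16 h (left) and 72 h (right) in 5 comparisons, with 95% intervals from limma and filled points for an adjusted p under 0.05. Nppa lies to the right of 0 in both genotype comparisons at both times, and at 16 h Nppb lies furthest from 0, at -4.19 for doxorubicin in WT cells and 5.39 between genotypes under doxorubicin.

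Because Nppa is known mainly from the atria, its level was set beside atrial markers. At 16 h the summed linear level of the 7 atrial markers was 42.2 to 73.3 on the Top2b-/- doxorubicin arrays and 71.3 to 150 on the WT doxorubicin arrays, and 11.8 to 72.1 on the Top2b-/- PBS arrays against 65.9 to 180 on the WT PBS arrays. The sums were not higher in the cells in which Nppa was higher, the ranges of the genotypes overlapped, and 0 of 6 tested atrial markers were called between the genotypes at 16 h. At 72 h the sums were 4.45 to 19.0 on the Top2b-/- doxorubicin arrays against 7.04 to 45.1 on the WT doxorubicin arrays, and 16.0 to 34.5 on the Top2b-/- PBS arrays against 10.9 to 40.7 on the WT PBS arrays. The median difference of the 6 tested atrial markers, Top2b-/- minus WT, was -1.41 after PBS and -0.64 after doxorubicin at 16 h, and 0.28 and -1.16 at 72 h. Between the genotypes at 72 h 0 of 6 were called after PBS. Under doxorubicin 1 of 6 was called lower in Top2b-/- cells and 0 higher, beside 7.90% of all genes called and 3.65% called lower. With the mean level of Myl7, Sln and Myl4 as a covariate, Nppa differed by 2.89 (limma adjusted p = 0.0223) after PBS and 2.92 (limma adjusted p = 0.00127) after doxorubicin at 16 h. At 72 h it differed by 3.63 (limma adjusted p = 0.0187) after PBS and 2.92 (limma adjusted p = 0.0602) after doxorubicin.

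Within the WT arrays, Nppa was higher where the atrial markers were higher. Over the 6 WT arrays of 16 h, Nppa and the mean of Myl7, Sln and Myl4 had a Pearson r of 0.947 (exact permutation p = 0.00139, adjusted 0.0111 over 8 relations) and a Spearman rho of 1 (exact permutation p = 0.00278, adjusted 0.0222). Without the 2 arrays farthest from the median r was 0.972. Over the 6 WT arrays of 72 h r was 0.905 (exact permutation p = 0.0292, adjusted 0.117) and rho 0.943 (exact permutation p = 0.0167, adjusted 0.0668), and r was 0.891 without the 2 farthest arrays. Over the 6 Top2b-/- arrays r was -0.26 at 16 h and -0.31 at 72 h, with rho of -0.49 and -0.14, and exact permutation p of 0.558 and 0.540 for r (adjusted 0.682 both). For Nppb the 4 values of r ran from -0.50 to 0.47, with exact permutation p of at least 0.315 (adjusted at least 0.658). These values pool doxorubicin and PBS arrays, and whether the relation differs between genotypes was not tested. At 16 h all WT arrays lay on 1 slide, and at 72 h slide 2 held too few arrays for a value of its own.

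**Figure D4:**
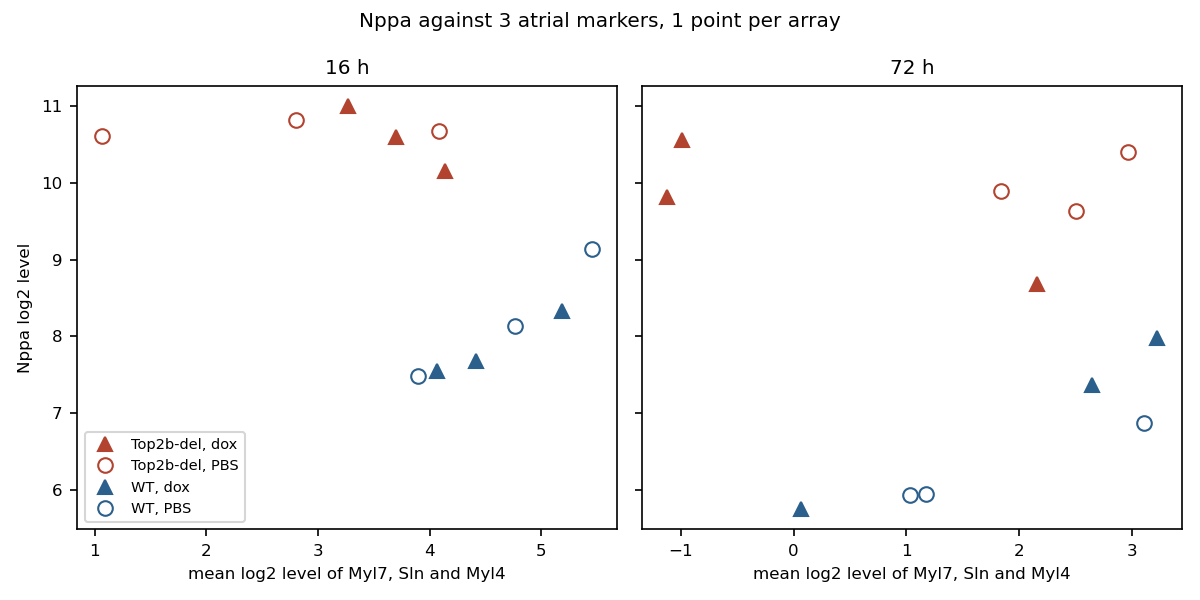
Log2 level of Nppa against the mean log2 level of the atrial markers Myl7, Sln and Myl4 at 16 h (left) and 72 h (right), with 1 point per array, red for Top2b-/-, blue for WT, triangles for doxorubicin and open circles for PBS. Among the WT arrays Nppa is higher where the markers are (r of 0.947 and 0.905), while every Top2b-/- array lies above every WT array.

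Fetal and stress genes, the sarcomere, Z-disc and stretch genes that often accompany the peptide genes in a loaded heart, included calls higher and none lower in Top2b-/- than WT cells at both times. After PBS at 16 h, 6 of 14 were called higher and 0 lower, with a median difference of 1.06 beside -0.01 over all genes, of which 6.72% were called higher and 5.74% lower. Myh7, the slow myosin heavy chain of the fetal ventricle, was higher by 4.71 ± 0.72 (limma adjusted p = 0.00298), Ctgf, a matricellular factor, by 2.91 ± 0.42 (limma adjusted p = 0.00217) and Tnni1, the slow skeletal troponin I of the fetal heart, by 2.88 ± 0.63 (limma adjusted p = 0.0161). Under doxorubicin 10 of 14 were called higher and 0 lower, with a median of 1.14 beside -0.01, in a comparison with 31.3% of all genes called (16.9% higher, 14.4% lower) and with the genotypes on different slides. With slide as a block 4 of the 6 calls after PBS were kept and 0 of the 10 under doxorubicin, where the calls over all genes numbered 406, against 5873 without the block. Markers of fibroblasts moved with these genes at 16 h: 4 of 9 tested were called higher after PBS and 5 under doxorubicin, 0 were lower, and their medians were 1.05 and 1.55. The summed linear level of the fibroblast markers was 45.9 to 97.98 on the Top2b-/- PBS arrays, against 24.6 to 36.6 on the WT PBS arrays, and 30.1 to 52.5 on the Top2b-/- doxorubicin arrays, against 22.3 to 51.1 on the WT doxorubicin arrays. Their part in the result was not tested. At 72 h, 2 of 14 were called higher after PBS, with a list median of 0.44 beside -0.01. These were Tnni1, by 2.56 ± 0.30 (limma adjusted p = 0.00145), and Ctgf, by 2.38 ± 0.41 (limma adjusted p = 0.0133). Under doxorubicin 2 were called higher, with a median of 0.44 beside 0.08. Over all genes 2.13% were called after PBS (1.05% higher) and 7.90% under doxorubicin (4.25% higher). Without the 3 WT arrays that had the Esr1 probe signal, Tnni1 differed by 2.69 and Ctgf by 2.81 after PBS (limma adjusted p of 0.0777 and 0.107), so that neither was called, and 1 of the 2 calls under doxorubicin was kept.

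In WT cells at 16 h, 5 of these 14 genes fell after doxorubicin and 1 rose, beside 27.9% of all genes called, with a median of -0.34. Fhl2, a LIM protein of the sarcomere, fell by 1.58 on the log2 scale (limma adjusted p = 8.35e-05), Csrp3, the muscle LIM protein, fell by 1.51 (limma adjusted p = 0.000125), and Acta1, skeletal actin, fell by 1.71 (limma adjusted p = 0.0451). Ctgf rose by 2.15 ± 0.42 (limma adjusted p = 0.00415). With slide as a block 4 of these 6 calls were kept, and that for Acta1 was lost (limma adjusted p = 0.0629). The response differed between genotypes for Fhl2 by 1.62 ± 0.21, for Csrp3 by 1.30 ± 0.21 and for Ctgf by -2.85 ± 0.59, Top2b-/- minus WT (limma adjusted p of 0.00188, 0.00545 and 0.0154), and the call for Ctgf was lost with slide as a block. In Top2b-/- cells 0 of 14 were called. Markers of smooth muscle cells and pericytes were also lower in WT cells after doxorubicin: 5 of 8 were called lower and 0 higher, with a median of -1.22, and their summed linear level was 28.7 to 35.5 on the doxorubicin arrays, against 80.1 to 105 on the PBS arrays. Their part in the result, here and in the lists that follow, was not tested. At 72 h in WT cells after doxorubicin 1 of the 14 genes was called higher, Ctgf, and 1 lower, Fhl2, beside 2.54% of all genes called. With slide as a block they differed by 2.00 and -1.21. Without the 3 WT arrays that had the Esr1 probe signal, which left 1 WT PBS array, they differed by 2.71 and -1.23. These are sizes only, because 1 array cannot show the spread of its group.

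**Figure D5:**
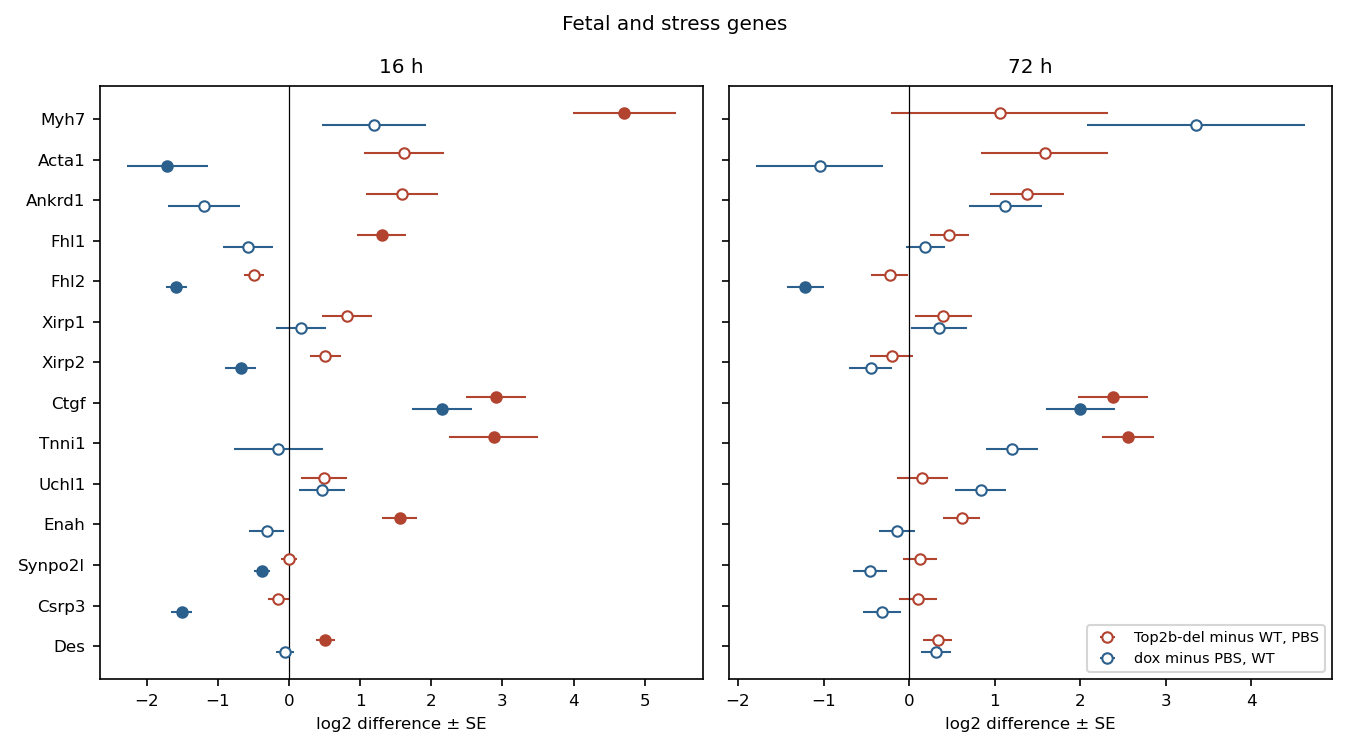
Log2 differences ± SE (limma) of the 14 fetal and stress genes at 16 h (left) and 72 h (right), in red for Top2b-/- minus WT after PBS and in blue for doxorubicin minus PBS in WT cells, filled for an adjusted p under 0.05. Myh7, Ctgf and Tnni1 lie furthest to the right in red at 16 h, at 2.88 to 4.71, and Fhl2 lies to the left in blue at both times.

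Of 22 regulators known to act on the peptide genes, all were tested. In WT cells at 16 h, 7 were called lower and 2 higher after doxorubicin, with a median of -0.32 beside -0.03 over all genes, of which 27.9% were called (13.6% higher, 14.3% lower). Srf, the serum response factor, fell by 1.59 on the log2 scale (limma adjusted p = 0.000803), Gata4, a zinc finger factor of the heart, fell by 1.04 (limma adjusted p = 0.000459), and Klf13, a zinc finger factor, rose by 1.35 ± 0.25 (limma adjusted p = 0.00302). In Top2b-/- cells 0 of 22 were called. The response differed between genotypes for Gata4 by 1.06 ± 0.19, Srf by 1.41 ± 0.32 and Nkx2-5, a homeobox factor of the heart, by 1.73 ± 0.41 (limma adjusted p of 0.00739, 0.0203 and 0.0248). In all, 4 of 22 were called, each higher in Top2b-/-, beside 11.5% of all genes called and 6.25% called higher. Between genotypes after PBS 2 of 22 were called at 16 h, both lower, beside 12.5% of all genes called and 5.74% called lower. They were the T-box repressors Tbx3, at -0.75 ± 0.20, and Tbx2, at -1.30 ± 0.38, Top2b-/- minus WT (limma adjusted p of 0.0342 and 0.0497). Under doxorubicin at 16 h 9 of 22 were called higher in Top2b-/- than WT cells and 3 lower. Over all genes 31.3% were called in that comparison (16.9% higher, 14.4% lower), with the genotypes on different slides. With slide as a block the calls after doxorubicin in WT cells were kept. Those for the difference of responses and between the genotypes, after PBS or under doxorubicin, were lost. At 72 h after PBS 1 of 22 was called, beside 2.13% of all genes called and 1.05% called higher. It was Gata6, higher by 0.64 ± 0.13 (limma adjusted p = 0.0307). Without the 3 WT arrays that had the Esr1 probe signal, Gata6 was higher by 0.61. This is a size only, because 1 WT PBS array was left and cannot show the spread of its group. Under doxorubicin at 72 h 3 of 22 were called higher in Top2b-/- than WT cells and 1 lower. Over all genes 7.90% were called there (4.25% higher, 3.65% lower). Without the same 3 WT arrays 0 of these 4 differences turned sign.

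Downstream of the receptors, 15 of 19 genes of cyclic GMP synthesis and signalling were tested at 16 h and 16 at 72 h. In WT cells at 16 h 6 of 15 fell after doxorubicin and 0 rose, with a median of -0.75 beside -0.03 over all genes, of which 14.3% were called lower and 13.6% higher. The smooth muscle and pericyte markers, 5 of 8 called lower, moved with them. Pde3a, a phosphodiesterase that cyclic GMP inhibits, fell by 1.39 (limma adjusted p = 0.00155), Vasp, a substrate of cyclic GMP-dependent kinase, fell by 0.85 (limma adjusted p = 0.00469), and Pde1c, a calmodulin-dependent phosphodiesterase, fell by 0.85 (limma adjusted p = 0.00610). Under doxorubicin 4 of 15 were called higher in Top2b-/- than WT cells and 1 lower, beside 31.3% of all genes called (16.9% higher, 14.4% lower), and with slide as a block 0 of these 5 calls were kept. Pde3a differed by 1.88 ± 0.22, Prkg1, a cyclic GMP-dependent kinase, by 1.41 ± 0.25 and Nos3, the endothelial nitric oxide synthase, by -1.07 ± 0.21, Top2b-/- minus WT (limma adjusted p of 0.000275, 0.00252 and 0.00405). After PBS 2 of 15 were called lower, beside 12.5% of all genes called and 5.74% called lower. They were Pde2a, a phosphodiesterase that cyclic GMP stimulates, at -1.62 ± 0.34, and Nos2, the inducible nitric oxide synthase, at -0.59 ± 0.16 (limma adjusted p of 0.0142 and 0.0382). Neither was called with slide as a block. At 72 h the single call was Pde2a under doxorubicin, 1 of 16, beside 7.90% of all genes called and 3.65% called lower. Pde2a differed by -1.58 ± 0.36, Top2b-/- minus WT (limma adjusted p = 0.0266). Without the 3 WT arrays that had the Esr1 probe signal it differed by -1.76. The count at 72 h depended on the setting. With slide as a block 4 of 16 were called higher and 1 lower after doxorubicin in WT cells, beside 2558 of 19669 genes called. Between the genotypes under doxorubicin that setting called 1 higher and 6 lower in Top2b-/- cells, beside 3220 of 19669 genes called.

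Of the related ligands, peptidases and convertases, 4 of 9 were tested: Mme (neprilysin, which degrades the peptides), Ide (insulin-degrading enzyme), Pcsk6 and Pcsk7 (proprotein convertases). None was called in any of the 10 comparisons. The largest difference was that of Pcsk6 at 72 h under doxorubicin, -1.37 ± 0.80, Top2b-/- minus WT (limma adjusted p = 0.322), and Mme differed by -0.94 ± 0.36 at 16 h after PBS (limma adjusted p = 0.115).

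The chromosomal neighbours did not share 1 direction with the peptide genes. After PBS at 16 h, Clcn6, an endosomal chloride-proton exchanger, was higher by 1.85 ± 0.38 in Top2b-/- cells (limma adjusted p = 0.0127). Miip was lower, at -0.81 ± 0.19, Top2b-/- minus WT (limma adjusted p = 0.0204). The other 5 of 7 were not called, beside 12.5% of all genes called. Under doxorubicin at 16 h 2 of 7 were called higher in Top2b-/- than WT cells and 2 lower, beside 31.3% of all genes called. In WT cells at 16 h after doxorubicin Plod1, a lysyl hydroxylase, fell by 1.27 (limma adjusted p = 1.00e-04), Mfn2, a mitochondrial fusion protein, fell by 0.53 (limma adjusted p = 0.00590), and Miip rose by 1.49 ± 0.19 (limma adjusted p = 0.000440), among 3 called lower and 2 higher, beside 27.9% of all genes called. At 72 h Miip was lower in Top2b-/- cells after PBS, at -1.22 ± 0.27 (limma adjusted p = 0.0448), beside 2.13% of all genes called. Under doxorubicin at 72 h 2 of 7 were called higher and 1 lower, beside 7.90% of all genes called. Clcn6 and Plod1 were higher, by 0.84 ± 0.18 and 0.85 ± 0.18 (limma adjusted p of 0.0216 both). Miip was lower, at -1.21 with slide as a block and at -1.25 without the 3 WT arrays that had the Esr1 probe signal. Without the 3 WT arrays that had the Esr1 probe signal, Miip differed by -1.06 after PBS (limma adjusted p = 0.4997), and Clcn6 and Plod1 by 0.87 and 0.75 under doxorubicin (limma adjusted p of 0.0452 and 0.0738).

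The genes most like each member over the 24 arrays, with each time's mean subtracted, were sought among 18264 genes tested at both times. For Nppa they were Ccdc136 (r = 0.957), Bend6 (r = 0.935) and Tceal5 (r = 0.929). For Nppb they were Ankrd23 (r = 0.947), an interval probe on chromosome 10 without a gene name (r = 0.944) and Hspa1l (r = 0.943). Npr3 was most like Gucy1a3, a subunit of the soluble guanylyl cyclase (r = 0.918), and Ushbp1 (r = 0.911). Npr2 was most like Lmf2 (r = 0.869) and Pgap3 (r = 0.841), Corin like Fry (r = 0.867) and Mknk2 (r = 0.857), and Furin like Rock2 (r = 0.898) and Gm6211 (r = 0.858). Among the members the highest value was that of Nppa and Nppb (r = 0.663) and the lowest that of Furin and Npr3 (r = -0.72). These values share arrays, slides and group differences, and are descriptions.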

How the data were processed

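RNA of isolated mouse cardiomyocytes was hybridised to 24 1-colour arrays (100 ng total RNA per sample, per the labels' protocols). The authors deposited linear spot intensity (background-subtracted processed signal), with flags for background, saturation and outliers, made by version 10.7.3.1 of the Agilent Feature Extraction program, per the file headers. The authors also deposited a value table, in which each ratio is the processed signal over the array median, as found by comparison with the scanner files. Outlier spots were set missing, log2 of the processed signal was taken minus the array's 75th percentile (146 to 282 intensity units), spots were averaged per probe (10 for Nppa), and a probe was kept at a time if well above background on all 3 arrays of a group. The brightest kept probe stood for a gene. The share of spots with signal well above background was 42.9% to 52.6% per array, and the number of arrays limits the precision. Groups came from the titles. With 4 groups and 12 arrays per time, limma 3.58.1 in R 4.3.3 gave 5 comparisons per time with 8 residual degrees of freedom before moderation, and Benjamini-Hochberg adjustment ran over all genes. Members and gene lists were chosen with earlier results of these data known. Every member was named; list genes were named among the 3 with the smallest p in a comparison or where the whole list was given, and Acta1, Mme, Pcsk6 and Clcn6 partly under the latter. Alternatives covered background correction, normalization, filter, probes, value table, slide, replicate number, Y-linked transcripts, genotype label and single arrays; the atrial and Esr1 covariates and the removal of WT arrays with Esr1 signal, and for the gene lists the slide block, were chosen after seeing the data. The test was tried on simulated data with 200 changed genes. RefSeq sequences are of GRCm38.p6, and the files' coordinates are of mm9, per the file headers.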

Additional observations from a re-analysis of the deposited data

How the results depend on the processing

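Of 195 repeats of called member differences under other settings, 163 kept the call, 32 lost it and 0 turned sign. Of 1293 repeats of uncalled ones, 22 gained a call and 85 changed sign. At 16 h the count of members called after doxorubicin in WT cells was 1, and 0 with the genotype characteristic in place of the title. For Top2b-/- against WT after PBS it was 1, and 3 with normexp, 2 with Y-linked transcripts as a covariate and 0 with the genotype characteristic. For the genotypes under doxorubicin it was 3, and 0 with slide as a block and 0 with the genotype characteristic. Removing 1 array at a time gave 1 to 3, 1 to 3 and 2 to 4 in these comparisons, and 0 to 1 for the difference of responses. At 72 h after doxorubicin in WT cells it was 0, and 1 with slide as a block (0 to 1 without 1 array). For Top2b-/- against WT after PBS it was 1, and 0 with no WT array that had Esr1 probe signal (1 to 1 without 1 array). For the genotypes under doxorubicin it was 2, and 1 with quantile normalization, 1 with no filter, 0 with the atrial covariate, 1 with the Esr1 covariate and 1 with no WT array that had Esr1 signal (0 to 3 without 1 array). The cause was not tested. The replicate block, with 1 call added (Furin under doxorubicin at 72 h, 0.51, limma adjusted p = 0.0178), changed no other member's call. Deviations from the group means of same-numbered arrays of different groups correlated by -0.12 to 0.29 at 16 h (median 0.06, 6 of 18 pairs over 0.1) and by 0.0022 to 0.73 at 72 h (median 0.35, 16 of 18 pairs over 0.1). For different numbers the median was -0.03 at 16 h and -0.24 at 72 h. The tests as reported did not pair samples by number, because not every pair was over 0.1. At 72 h arrays of the same number still varied together in 16 of 18 pairs, and those tests leave this shared variation out. At 72 h number 4 was also slide 2, so the part of number and the part of slide cannot be told apart there. The replicate block moved the count over all genes at 72 h to 3127 for doxorubicin in WT cells, against 499, and to 3777 between genotypes under doxorubicin, against 1554. Over all settings run, single arrays and single slides included, counts over all genes at 16 h were 0 to 6989 (5224 as reported) after doxorubicin in WT cells, 0 to 3849 (2337) between genotypes after PBS, 0 to 7960 (5873) under doxorubicin and 0 to 4745 (2159) for the difference of responses, each 0 being that of the genotype characteristic. Without that setting the lowest counts were 3280, 473, 406 and 375. At 72 h they ran from 1 to 3127 (499), 127 to 893 (418) and 493 to 3777 (1554) in the same order for the first 3, and from 0 to 3 (0) for the difference of responses. The value table, scaled to the median, moved the median of all genes under doxorubicin at 16 h, Top2b-/- minus WT, to 0.15, against -0.01, and after doxorubicin in WT cells at 72 h to -0.18, against -0.07. Npr1 and part of Npr3 were limited by signal over background.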
